A study of Mus musculus with 56 samples.

Results

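The genes described here are 10 markers of the stem cells at the base of the intestinal crypt, Lgr5, Lgr4, Ascl2, Sox9, Smoc2, Prom1, Cd44, Tnfrsf19, Slc12a2 and Cdca7, in single cells of mouse colon tumors. They were chosen by name, as the rows of a table of TPM (transcript abundance scaled for gene length and library) whose Ensembl IDs map to these symbols. All 10 were found among 24410 gene IDs. The series concerns the transcription factor PROX1, chemoresistance and quiescent colon cancer stem cells. The cells came from 1 male ApcMin/+ mouse, which carries a truncating allele of the Wnt pathway inhibitor Apc and forms intestinal tumors. At 10 weeks of age it drank 2% dextran sulfate sodium, an agent that injures the colon lining, over 5 days, and at 12 weeks 3 of its tumors were mixed. Living cells with Epcam and Cd24 on their surface, and without Cd31 of endothelium and Cd45 of leukocytes, were sorted singly, and a library was sequenced only where a PCR of 32 cycles had found Lgr5 in the cDNA. All cells thus share the Apc allele, the dextran sulfate treatment and the Lgr5 PCR, and there was 1 group with no untreated or normal cells to set beside it.

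In the crypt, stem cells divide under Wnt signals from the surrounding tissue. R-spondins, secreted proteins that bind LGR receptors, strengthen these signals by keeping the ligases RNF43 and ZNRF3 from removing Wnt receptors. With Apc truncated, beta-catenin and its TCF/LEF partners drive Wnt target genes, many stem cell markers among them, without the ligand.

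The 56 libraries included 6 pairs whose profiles correlated at r of 0.957 to 0.992, against 0.782 for the next pair. Each of these pairs was averaged as 1 cell, which gave 50 cells. Read depth is unknown, because TPM do not keep it. A gene is called seen at 1 TPM or more, and cells had a median of 5902.5 genes seen, with a range of 1316 to 7234 and 3151 in the cell with the next fewest. Epcam and Cd24a were seen in 50 of 50 cells, and Pecam1 (Cd31) and Ptprc (Cd45) in 0 (95% Clopper-Pearson interval 0% to 7.11%). The cells of 1 mouse are not replicates, so every relation below is a description over these cells, without a test. Intervals cover counting error only.

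Promoters were looked at for members with an entry in the RefSeq promoter table (GRCm38.p6, from 250 bases before to 50 bases after each start). Entries on the chromosome that holds Slc12a2 were left out before counting. The Slc12a2 promoter was thus not looked at, and the shares of all promoters and all genes below leave that chromosome out. The entries kept held 8 promoters of 6 members. Motifs were searched as exact letters on both strands, TTCCCGC for E2F, the factor family of S phase genes, CTTTGAT for TCF/LEF, the partners of beta-catenin, and CAGCTG, an E-box of the kind bound by ASCL proteins. No match overlapped another. The 2 promoters with a match are shown 5′ to 3′ on the strand of the gene, with matches in capitals, Cdca7 because its level went with the cell cycle genes described further on and Tnfrsf19 because it alone held the TCF/LEF letters. Cdca7 lies at chr2:72475969-72476268 on the plus strand and Tnfrsf19 at chr14:61037938-61038237 on the minus strand.
Cdca7: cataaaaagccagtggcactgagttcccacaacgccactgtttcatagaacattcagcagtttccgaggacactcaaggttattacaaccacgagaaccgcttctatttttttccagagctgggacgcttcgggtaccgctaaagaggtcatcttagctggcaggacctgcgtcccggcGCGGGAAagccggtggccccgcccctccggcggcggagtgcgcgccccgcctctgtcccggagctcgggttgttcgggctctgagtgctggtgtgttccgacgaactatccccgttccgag
Tnfrsf19: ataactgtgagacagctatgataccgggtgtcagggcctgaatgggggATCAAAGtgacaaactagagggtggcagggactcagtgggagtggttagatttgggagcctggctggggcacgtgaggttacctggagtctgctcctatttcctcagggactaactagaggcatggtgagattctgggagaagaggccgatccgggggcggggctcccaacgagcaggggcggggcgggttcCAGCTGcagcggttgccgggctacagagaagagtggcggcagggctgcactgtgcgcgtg
The Cdca7 promoter held GCGGGAA, the E2F letters read on the other strand, starting 71 bases before the start site. The E2F letters were found in 4.6% of 32851 promoters of all genes. Among the 19 S phase genes with an entry, 8 held them (42.1%), against 5.29% of all genes and 0 of 26 G2/M genes. The matches with 10 bases on either side are shown for Cdca7 and for S phase genes whose match lies before the start site and whose levels had a rho of 0.4 or above with Cdca7. They lie on chromosome 2 at 72476138 to 72476164 (Cdca7, plus strand), chromosome 19 at 38930919 to 38930945 (Hells, plus), chromosome 7 at 102441618 to 102441644 (Rrm1, plus), chromosome 16 at 93883664 to 93883690 (Chaf1b, plus) and chromosome 10 at 128015190 to 128015216 (Prim1, plus).
Cdca7: gcgtcccggcGCGGGAAagccggtggc
Hells: ccaccgggttTTCCCGCgaaagagaag
Rrm1: ggagaactcgTTCCCGCcaggtccgct
Chaf1b: cctccgaggcGCGGGAAtgggattccc
Prim1: gcctgtcttgTTCCCGCcaattctcgt
In Cdca7 and Chaf1b the letters run as GCGGGAA on the strand of the gene, and in Hells, Rrm1 and Prim1 as TTCCCGC. The genes shown were chosen by both letters and rho, so the display does not relate the 2. Cdc6, Mcm7 and Uhrf1 also held the letters before their starts, with a rho under 0.4 with Cdca7 (0.39, 0.36 and 0.3998). Mcm3, with 0.46, held them after its start. The Tnfrsf19 promoter held ATCAAAG 202 bases before its start, present in 3.73% of all promoters, and CAGCTG 10 bases before it, present in 16.3%. The second Tnfrsf19 promoter and those of Ascl2, Cd44, Lgr4 and Prom1 (2 promoters) held none of the 3 motifs. A match is a run of letters and does not show that a factor binds there.

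All 10 markers were seen in some cells, and most cells lacked at least 1 of them. A cell had a median of 7.5 markers at 1 TPM or more, with a range of 2 to 10. There were 25 cells with 8 or more markers, 14 cells with 7 and 8 cells with 5 or fewer. All 10 were seen in 5 cells. The number of markers seen had a rho of 0.43 with the number of genes seen in the cell, and the part of detection in it was not tested. The 5 cells with all 10 markers held 5277 to 7234 genes, and the cell with 2 markers, Prom1 at 24.02 TPM and Lgr5 at 1.13 TPM, held 5276 genes.

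The R-spondin receptor genes were low and widespread. Lgr5 (ENSMUSG00000020140, GRCm38 chromosome 10, 115450311 to 115587780, minus strand), the receptor gene that defines cycling crypt stem cells, had a lowest, median and highest level of 0, 2.18 and 16.2 TPM. It was seen in 38 of 50 cells (interval 61.8% to 86.9%), lay between 0 and 1 TPM in 11 more and was listed at 0 in 1. Every sequenced cDNA had been positive for Lgr5 by PCR, so its presence was selected, while 12 cells stayed under 1 TPM. Lgr4 (ENSMUSG00000050199, chromosome 2, 109917647 to 110014257, plus strand), its broader relative in proliferating crypt cells, had 0.01, 4.37 and 28.3 TPM. It was seen in 39 cells (64.0% to 88.5%) and was above 0 in all 50. Both receptors were seen in 30 cells and neither in 3. Lgr4 was seen in 30 of 38 cells with Lgr5 (78.9%, 62.7% to 90.4%) and in 9 of 12 without it (75%, 42.8% to 94.5%), and these intervals overlap. The third receptor of the family, Lgr6, was seen in 0 cells. The R-spondin genes Rspo1, Rspo2 and Rspo3 were seen in 0 cells and Rspo4 in 1, while the ligase genes Rnf43 and Znrf3 were seen in 45 and 16.

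The transcription factor genes spread widely between cells, and Ascl2 was the marker closest to on or off. Ascl2 (ENSMUSG00000009248, chromosome 7, 142966829 to 142969264, minus strand), a basic helix-loop-helix factor that sets the stem cell program, had a median of 0 and a highest level of 329 TPM. It was listed at 0 in 27 cells, lay between 0 and 1 TPM in 1 and was seen in 22 (29.99% to 58.7%). In those 22 cells it ranged upward from 2.72 TPM with a median of 71.8, and 20 of them held 10 TPM or more and 8 held 100 or more. The standard deviation (SD) of its log2(TPM + 1) was 3.18, above that of 97.7% of the 9166 genes seen in 20% of cells, whose median was 1.67. Sox9 (ENSMUSG00000000567, chromosome 11, 112782224 to 112787760, plus strand), an HMG-box factor of stem, progenitor and Paneth cells, had 0, 25.2 and 319 TPM. It was seen in 43 cells (73.3% to 94.2%), reached 10 TPM in 34 and 100 TPM in 7, with an SD of 2.34 on the log2 scale. Sox9 was thus graded over most cells, where Ascl2 was either at 0 or, mostly, above 10 TPM.

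Smoc2 and Prom1 were present at moderate levels in nearly all cells. Smoc2 (ENSMUSG00000023886, chromosome 17, 14279506 to 14404790, plus strand), a secreted calcium-binding matrix protein gene, had 0.02, 12.2 and 51.6 TPM and was seen in 43 cells. Prom1 (ENSMUSG00000029086, chromosome 5, 43993620 to 44102032, minus strand), which encodes the membrane protein CD133, had 0, 8.08 and 47.5 TPM and was seen in 47 cells (83.5% to 98.7%), the most of the 10. Exons of Prom1 overlap those of Gm16401 on the opposite strand. Use of strand in the counting was not given in the sources used here, so reads of the pair may not be told apart.

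The surface receptor genes Cd44 and Tnfrsf19 were low and each was unseen in many cells. Cd44 (ENSMUSG00000005087, chromosome 2, 102811141 to 102901665, minus strand), the hyaluronan receptor and a Wnt target, had 0, 1 and 11.8 TPM. It was seen in 25 cells (35.5% to 64.5%) and lay between 0 and 1 TPM in 18 more, so its share rests heavily on the threshold. Tnfrsf19 (ENSMUSG00000060548, chromosome 14, 60963875 to 61046490, minus strand), the tumor necrosis factor receptor family member also called Troy, had 0, 3.32 and 28.4 TPM and was seen in 32 cells (49.2% to 77.1%).

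Slc12a2 and Cdca7 complete the list. Slc12a2 (ENSMUSG00000024597, chromosome 18, 57878678 to 57946821, plus strand), the sodium, potassium and chloride cotransporter NKCC1, had 0, 5.28 and 28 TPM and was seen in 39 cells. Cdca7 (ENSMUSG00000055612, chromosome 2, 72476159 to 72486893, plus strand), a zinc finger protein that recruits the chromatin remodeler HELLS and is known as a target of MYC and E2F, had 0, 29.98 and 170 TPM. It was also seen in 39 cells, reached 10 TPM in 33, and had an SD of 2.46 on the log2 scale, above that of 86.2% of the genes. Its spread ranked second among the markers after Ascl2, followed by Sox9 at 82.6%. The other 7 markers spread less than the median gene, from 47.03% for Smoc2 down to 17.2% for Lgr5. Adding 1 TPM before the log narrows differences at low levels, and none of these 7 reached 100 TPM in a cell. Lgr5 had also been selected by PCR.

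By median TPM the order was Ascl2, Cd44, Lgr5, Tnfrsf19, Lgr4, Slc12a2, Prom1, Smoc2, Sox9 and Cdca7, from lowest to highest. The ranges from the lower to the upper quartile overlapped between all neighbors in this order. Smoc2 was above Prom1 in 25 cells and below it in 25, Cdca7 was above Sox9 in 26 and below in 23, and Cd44 was above Ascl2 in 23 and below in 23. The clearest step between neighbors was Lgr4 above Tnfrsf19, in 35 cells against 15.

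**Figure D1:**
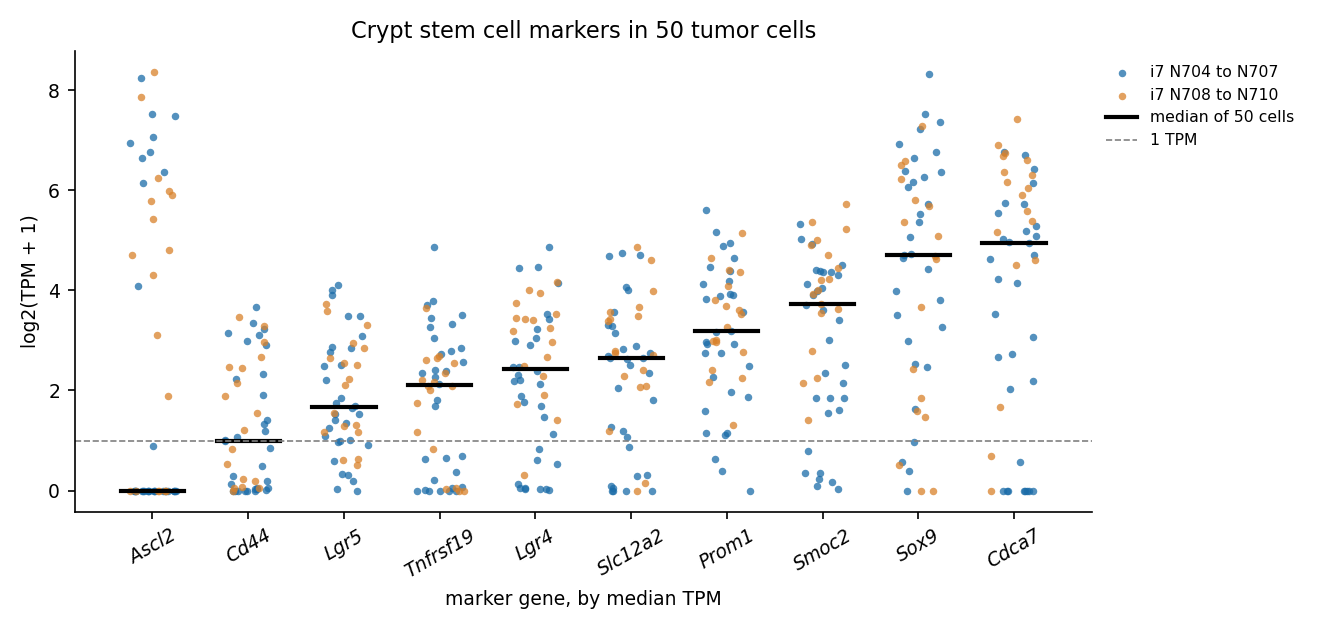
Level of each marker in 50 cells as log2(TPM + 1), ordered by median, with cells colored by i7 index group (the first of the 2 library barcodes), the median as a bar and 1 TPM as a dashed line. Ascl2 is at 0 in 27 cells and above 1 TPM in 22, Sox9 and Cdca7 spread widely, and Lgr5 stays at or under 16.2 TPM.

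The repeated libraries gave a measure of technical spread. In the 6 pairs, each marker fell on the same side of 1 TPM in both libraries, in 60 of 60 combinations. The median difference within a pair on the log2(TPM + 1) scale was 0.08 for Lgr5, against 1.17 between cells. It was 0.088 against 2.198 for Cdca7, 0.29 against 3.10 for Ascl2 and 0.48 against 2.24 for Sox9. Ascl2 was 0 in both libraries of 2 pairs, and its widest disagreement was 28.66 and 9.03 TPM. Sox9 was 69.15 and 31.39 TPM in its widest pair. For all 10 markers the median difference between cells was larger than that within pairs. Whether a pair shares the cell, the cDNA or the sequenced library was not given in the sources used here, so this spread may leave out steps before the split.

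**Figure D2:**
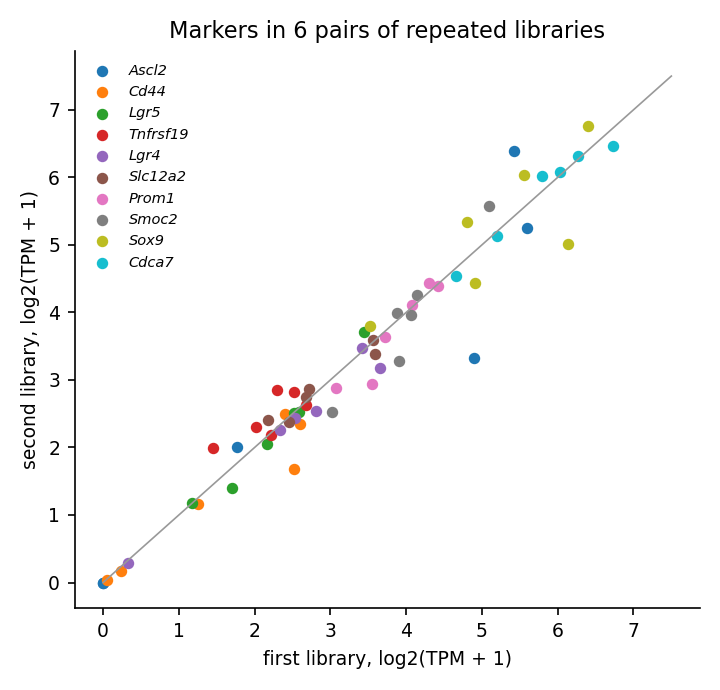
Each marker in the first and second library of the 6 repeated pairs, as log2(TPM + 1), with the line of equal values. All 60 points lie on the same side of 1 TPM in both libraries, and Ascl2 and Sox9 lie farthest from the line.

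Which markers went together was read from Spearman's rho of log2(TPM + 1) over the 50 cells. A pair was called together at a rho of 0.4 or above with the same sign in 4 index groups, those of i7 indexes N704 to N707 (32 cells) and N708 to N710 (18 cells) and of i5 indexes N502 to N505 (26 cells) and N506 to N517 (27 cells). Averaged cells can lie in both i5 groups. Of 45 marker pairs, 5 were together, where 0.885% of all pairs of the 9166 genes were, and 0.971% of pairs of the 5176 genes seen in as many cells as the markers. No pair was opposed at -0.4 or below, against 0.104% of all pairs. Spearman's rho was above 0 in 36 of 45 marker pairs, against 62.9% of all gene pairs. It kept its sign in the 4 groups in 24, against 36% of all gene pairs. The 24 include Lgr5 with Cd44, whose rho was -0.00, in effect without a sign, in the second i7 group. The median rho of the marker pairs was 0.14 and 25 of them lay within 0.2 of 0, so most markers varied with little relation to each other. Without the libraries of i5 index N517 there were 3 pairs together, and without those of N503 there were 8.

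The 5 pairs joined 5 of the markers, with Smoc2 and Slc12a2 in 3 pairs each. Slc12a2 and Cdca7 had the highest rho of the 45, 0.60 (Pearson's r 0.62, and 0.58 without the 2 cells farthest out), with 0.59 and 0.70 in the i7 groups and 0.58 and 0.59 in the i5 groups. Slc12a2 was seen in 35 of 39 cells with Cdca7 (89.7%, 75.8% to 97.1%) and in 4 of 11 without it (36.4%, 10.9% to 69.2%). In the 35 cells with both genes seen the rho was 0.38, lower than over all cells. Lgr4 and Smoc2 had a rho of 0.56 (r 0.54, and 0.52 without the 2 farthest cells), with 0.49 and 0.58 in the i7 groups and 0.50 and 0.49 in the i5 groups. In the 35 cells with both seen it was 0.35.

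Smoc2 and Slc12a2 had a rho of 0.46 (r 0.46, and 0.54 without the 2 farthest cells), and 0.40 to 0.59 over the 4 groups. Lgr5 and Slc12a2 had 0.45 (r 0.40, and 0.51), with 0.32 and 0.69 in the i7 groups and 0.27 and 0.65 in the i5 groups. Lgr5 and Smoc2 had 0.43 (r 0.41, and 0.49), but 0.13 in the first i5 group and 0.68 in the second. Both Lgr5 pairs were thus much closer in the second i5 group than in the first. In cells with both genes seen, Lgr5 had a rho of 0.57 with Smoc2 over 33 cells and 0.48 with Slc12a2 over 31.

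**Figure D3:**
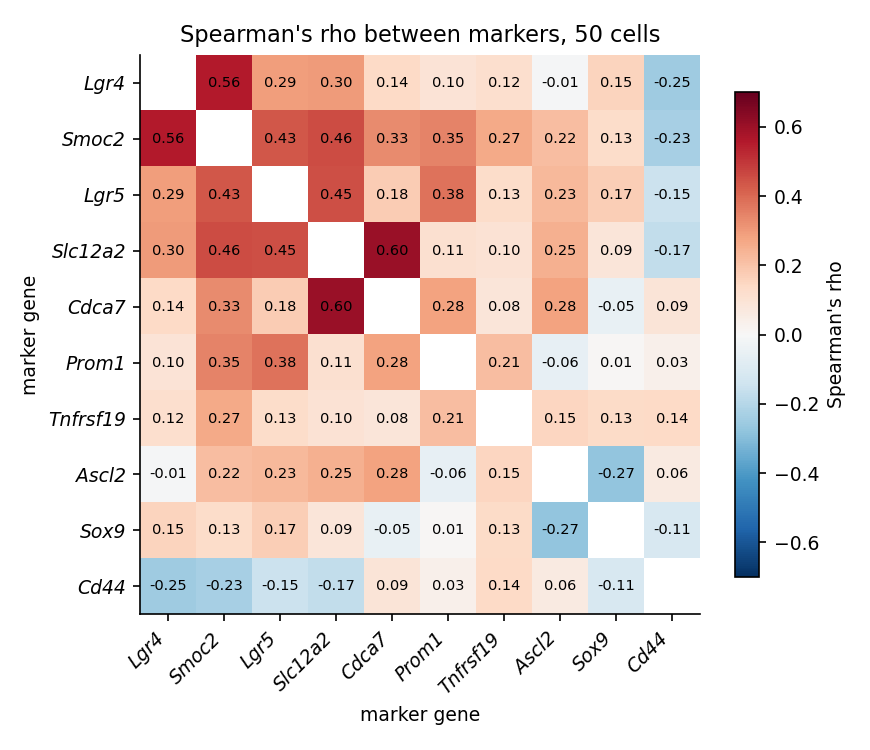
Spearman's rho of log2(TPM + 1) over 50 cells for each of the 45 marker pairs, with red above 0 and blue below. Lgr4, Smoc2, Lgr5, Slc12a2 and Cdca7 form the red block at the upper left. The 5 pairs called together lie in it, and its other pairs run down to 0.14 (Lgr4 with Cdca7). The row of Cd44 is blue against those of Lgr4, Smoc2, Lgr5 and Slc12a2.

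Over the 50 cells the 2 R-spondin receptor genes were not called together. Lgr5 and Lgr4 had a rho of 0.29, with 0.27 and 0.11 in the i7 groups and 0.16 and 0.43 in the i5 groups, although each had its own relation with Smoc2. Their rho was 0.40, just under the threshold before rounding, in the 30 cells with both seen, and 0.46 without the libraries of i5 index N503. Lgr5 and Prom1 had 0.38, just under the threshold, with 0.42 and 0.30 in the i7 groups, and 0.13 in the 37 cells with both seen. Smoc2 and Prom1 had 0.35, Smoc2 and Cdca7 0.33, and Lgr4 and Slc12a2 0.30. By the median rho with the other 9 markers, Smoc2 was the most connected at 0.33, followed by Slc12a2 at 0.25 and Lgr5 at 0.23.

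Ascl2, Sox9, Tnfrsf19, Prom1 and Cd44 were together with no other marker over the 50 cells. Lgr5 and Ascl2, which are often used as a pair to mark stem cells, had a rho of 0.23, with -0.15 and 0.51 in the i5 groups. Ascl2 was seen in 19 of 38 cells with Lgr5 (50%, 33.4% to 66.6%) and in 3 of 12 without it (25%, 5.49% to 57.2%), and these intervals overlap. There were 9 cells with neither gene. Slc12a2 was seen in 22 of 22 cells with Ascl2 (100%, 84.6% to 100%) and in 17 of 28 without it (60.7%, 40.6% to 78.5%). These intervals do not overlap, but the pair was picked with its values in view. Slc12a2 and Ascl2 had a rho of 0.25, with -0.14 and 0.58 in the i5 groups, and 0.04 in the 22 cells with both seen. Ascl2 and Sox9 had the lowest rho of all pairs, -0.27, with -0.39 and -0.03 in the i7 groups and -0.28 in both i5 groups. The highest rho of Sox9 with any marker was 0.17, with Lgr5. Tnfrsf19 had a rho above 0 with each of the other 9, from 0.08 to 0.27, but those with Lgr5, Lgr4, Slc12a2 and Cdca7 fell below 0 under 1 setting each. With Cdca7 it was -0.24 in the cells with both seen, and with Lgr5 it was -0.02 without the libraries of i5 index N507.

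Cd44 had values below 0 with 4 of the 5 markers in the pairs together, and 0.09 with Cdca7. Its median rho with the other 9 was -0.11, the lowest of the 10, and 5 of its 9 values were below 0. It had -0.25 with Lgr4, -0.23 with Smoc2, -0.17 with Slc12a2 and -0.15 with Lgr5. With Smoc2 it was -0.17 in the first i7 group and -0.72 in the 18 cells of the second. Cd44 was seen in 20 of 43 cells with Smoc2 and in 5 of 7 without it. In the cells with both genes seen, the rho of Cd44 was 0.09 with Smoc2 (20 cells) and -0.04 with Lgr4 (17 cells). It was -0.06 with Lgr5 (19 cells), but -0.33 with Sox9 (23 cells) and -0.49 with Slc12a2 (17 cells). None of the values over 50 cells reached -0.4.

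**Figure D4:**
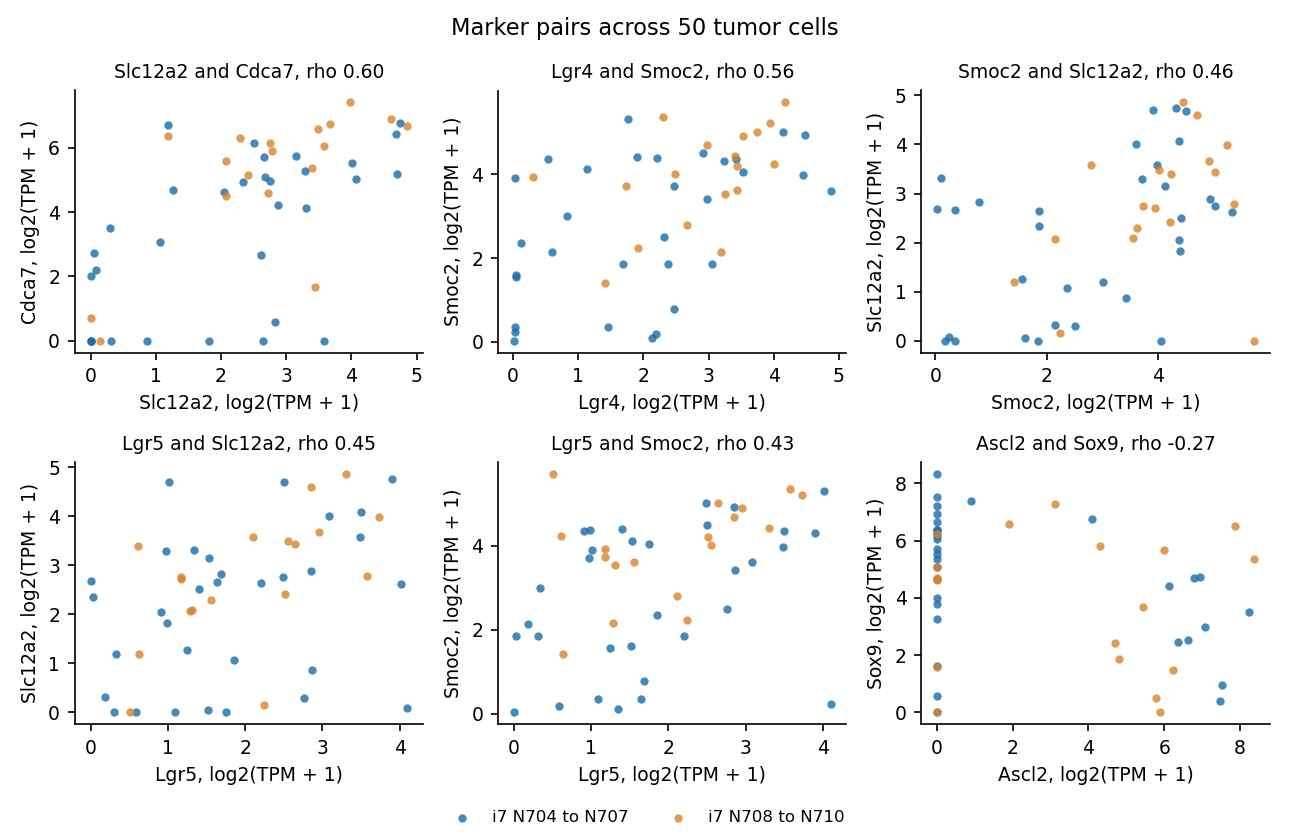
Levels of 6 marker pairs in 50 cells as log2(TPM + 1), colored by i7 index group: the 5 pairs called together and Ascl2 with Sox9, the lowest rho. Slc12a2 and Cdca7 are low together in the lower left, and the cells with Ascl2 lie over a wide range of Sox9.

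The markers differed in how they went with cell cycle genes. The level of a list was the mean log2(TPM + 1) of its genes, 22 genes of S phase and 30 of G2/M, and a rho of 0.4 or above with the same sign in the 4 groups was reached by 6.16% of other genes for the S phase list and 6.13% for the G2/M list. Cdca7 had a rho of 0.58 with the S phase list (r 0.56), higher than 99.0% of genes, and 0.63 with the G2/M list (r 0.53), higher than 99.3%. Cd44 had 0.46 with the S phase list (r 0.36), with 0.35 and 0.47 in the i7 groups and 0.67 and 0.26 in the i5 groups, but 0.20 with the G2/M list. Slc12a2 had 0.45 with the G2/M list (r 0.25) and 0.34 with the S phase list. Ascl2 had 0.26 and 0.32. With Pearson's r in place of rho, Cdca7 was the only marker at 0.4 or above.

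The remaining 6 markers had rho between -0.14 and 0.13 with the lists, where the median of all genes was 0.11 for S phase and 0.10 for G2/M. Lgr5 had -0.00 with the S phase list and 0.07 with the G2/M list. Lgr4 had -0.07 and 0.06, Smoc2 0.01 and 0.06, Prom1 0.08 and -0.03, Tnfrsf19 0.04 and 0.13, and Sox9 -0.14 and 0.10. Sox9 had 4 of 21 measured S phase genes above 0. The number of genes seen per cell had a rho of 0.35 with Cdca7 and 0.32 with Cd44. It had 0.21 with Slc12a2 and also with Tnfrsf19, against a median of 0.17 over all genes. Given the number of genes, the partial rho with the S phase list was 0.49 for Cdca7 and 0.35 for Cd44, so Cd44 fell under 0.4.

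**Figure D5:**
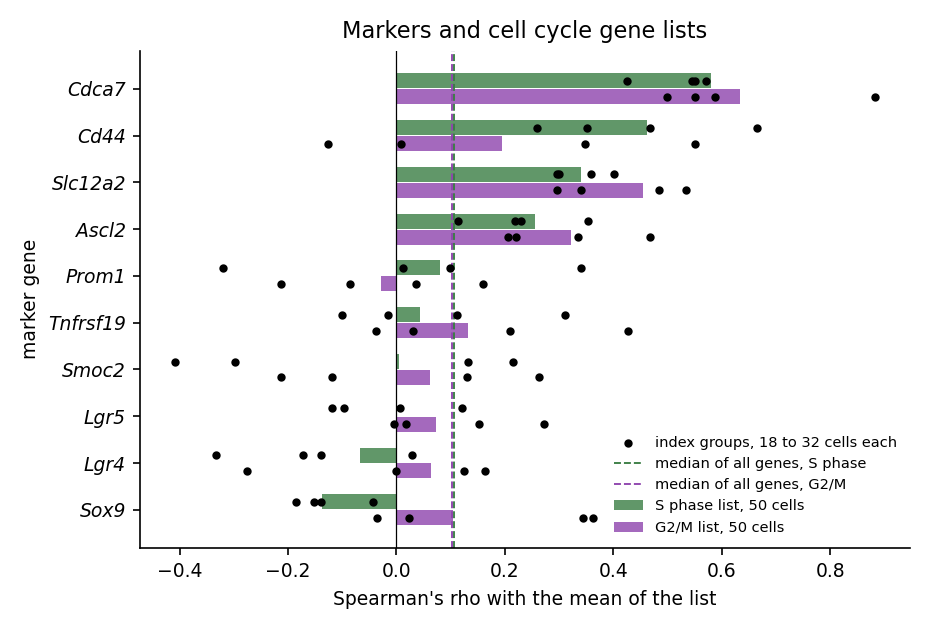
Spearman's rho of each marker with the mean of the S phase list (green) and the G2/M list (purple) over 50 cells, with dots for the 4 index groups and dashed lines for the median of all genes. Cdca7 is highest for both lists in 50 cells, and the dots of Smoc2, Prom1 and Lgr4 fall on both sides of 0.

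The single cycle genes gave the same picture for Cdca7. Of 21 S phase genes seen in 20% of cells, 13 had a rho of 0.4 or above with Cdca7 and 21 were above 0, where 4.21% of all genes reached 0.4. The replicative helicase genes Mcm5 and Mcm2 had 0.64 and 0.62, the nucleotide synthesis genes Dut and Tyms 0.60 each, and Hells, the partner of Cdca7, 0.53. Of 20 measured G2/M genes (those seen in 20% of cells), 16 reached 0.4, with the survivin gene Birc5 at 0.64, the ubiquitin-conjugating enzyme gene Ube2c at 0.61, the proliferation marker Mki67 at 0.57 and the topoisomerase gene Top2a at 0.42. For Cd44, 4 S phase genes reached 0.4, where 0.895% of all genes did, with Mcm6 at 0.45 and Slbp, which binds histone mRNA, at 0.44. For Cd44, 3 G2/M genes did, led by the spindle factor Tpx2 at 0.49. For Slc12a2 there were 3 S phase and 2 G2/M genes, where 1.76% of all genes reached 0.4, led by Cks2, a subunit of cyclin-dependent kinases, at 0.50.

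Slc12a2 and Cdca7 stayed at 0.4 or above when the cycle lists were taken into account. Their partial rho was 0.53 given the S phase list, 0.46 given the G2/M list and 0.58 given the genes per cell. For the other 4 pairs together, the partial rho given either list was between 0.43 and 0.56.

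Among 24 other crypt stem genes, 21 were seen in 20% of cells and few went with a marker. With Slc12a2, Igfbp4, which encodes an IGF-binding protein, had a rho of 0.49, the co-receptor gene Rgmb 0.47 and Gkn3 0.41. With Cdca7, Rgmb had 0.50 and the transcription factor gene Myb 0.41. With Prom1, the RNA-binding protein gene Msi1 had 0.41, where 0.229% of all genes reached 0.4. With Tnfrsf19, the RNA-binding protein gene Mex3a had 0.48, but 0.64 and -0.05 in the i7 groups, so its sign was not kept. Tnfrsf19 had 1.09% of all genes at 0.4 or above. None of the 21 reached 0.4 with Lgr5, Lgr4, Ascl2, Sox9 or Cd44, for which the shares of all genes were 0.382%, 0.349%, 0.851%, 0.415% and 0.895%. None did with Smoc2 either, where 0.36% of all genes reached 0.4. At -0.4 or below were 0.0982% of all genes for Lgr5, 0.142% for Lgr4, 0.0873% for Ascl2, 0.0218% for Sox9, 0.185% for Prom1 and 0.0218% for Tnfrsf19, and none of the 21 stem genes was so for any of these 6 markers. Olfm4, a stem cell gene of the small intestine in mice, was seen in 0 cells.

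The Wnt feedback genes, 14 in all and each seen in 20% of cells, were mostly below 0 with 4 of the connected markers and with Ascl2. With Cdca7 their median rho was -0.21, with 2 of 14 above 0, against a median of 0.05 over all genes. Nkd1 had -0.52 and Apcdd1 -0.40, both Wnt antagonist genes, where 0.633% of all genes were at -0.4 or below. With Slc12a2 their median was -0.15, against 0.07 over all genes, with 2 of 14 above 0 and Apcdd1 at -0.41, where 0.153% of all genes were at -0.4 or below. With Smoc2 their median was -0.12, against -0.00 over all genes, again with 2 of 14 above 0. With Lgr5 their median was -0.08, against 0.02 over all genes, also with 2 of 14 above 0. With Ascl2, 3 of 14 were above 0, and with Lgr4, 7 were. Myc, the proliferation factor gene, had -0.45 and Tcf7, a partner of beta-catenin, -0.39 with Smoc2, where 0.284% of all genes were at -0.4 or below.

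Of 10 epithelial genes, the intestinal transcription factor gene Cdx1 had a rho of 0.56 with Slc12a2 and 0.50 with Cdca7. Cdx1 was seen in 19 cells, with a median of 0.075 TPM. The claudin gene Cldn7 had 0.50 and the villin gene Vil1 0.42 with Slc12a2, while the keratin gene Krt18 had -0.40 with Cdca7. Of the 9 epithelial genes measured, 8 were above 0 with Slc12a2 and 5 with Cdca7. Of 9 genes of the fetal-like, regenerating epithelium, the calcium-binding protein gene S100a6 had -0.51 with Cdca7 and -0.46 with Slc12a2. The list as a whole did not go that way: 3 of its 6 measured genes were above 0 with each of these markers, with medians of 0.00 and 0.01, and Ly6a had 0.34 with Slc12a2. Of the Paneth and deep crypt secretory list, the matrix metalloproteinase gene Mmp7 had 0.45 with Sox9. Prox1 itself had 0.21 with Lgr5 and -0.38 with Cdca7, and stayed within 0.21 of 0 with the other 8.

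Markers of other cell types were mixed, with some genes of each list at 0 and a few genes widespread. Of 7 fibroblast genes, Col1a2, Col3a1, Dcn and Lum were at 0 in all cells and Col1a1 was seen in 1, while Pdgfra was seen in 25 and Acta2 in 23. Pdgfra, a growth factor receptor gene of mesenchymal cells, had a rho of 0.52 with Prom1 and 0.39 with Tnfrsf19. The summed fibroblast list ranged from 0 to 148 TPM with a median of 3.69. The median rho of its 2 measured genes was 0.23 with Lgr4, 0.22 with Sox9 and 0.23 with Tnfrsf19. With Prom1 this median was 0.13, and only Pdgfra of the 2 genes was above 0. Of 6 endothelial genes, 4 were seen in no cell, and the sum had a median of 0.02 TPM. Of 12 immune genes, 6 were seen in no cell, but Cd14 was seen in 37 and Csf1r in 21, and the sum had a median of 126 TPM. Of 10 tuft cell genes, 8 were seen in no cell, Trpm5 and Pou2f3 among them, but Avil was seen in 46. Of 13 enteroendocrine genes, 6 were seen in no cell, Chga and Neurod1 among them, but Fev was seen in 50 and Isl1 in 30. Of 11 colonocyte genes, 6 were seen in no cell, but Car1 and Slc37a2 were each seen in 44. The median rho of the 4 measured was 0.24 with Ascl2. Guca2b, seen in 12 cells, had 0.48 with Cdca7, where 3 of the 4 were above 0. Slc37a2 had -0.44 with Smoc2, where 2 of the 4 were above 0. Of the goblet cell genes, Clca1 was seen in 0 cells and Agr2, the 1 gene measured, in 25, with a rho of 0.32 with Ascl2. The part of such cells in the marker relations was not tested.

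The 3 genes closest to each marker by rho, among those with 1 sign in the 4 groups, were as follows, and being the highest of 9165 genes they are a description only. For Lgr5 they were Lgals9, a galectin gene, at 0.63, Mrps31, of the mitochondrial ribosome, at 0.53, and the autophagy gene Wipi2 at 0.53. For Lgr4 they were Paip2b, a regulator of translation, at 0.52, Morf4l2 at 0.50 and Acads, of fatty acid oxidation, at 0.48. For Smoc2 they were Tent5a at 0.60, AI506816 at 0.55 and Mtrex, an RNA helicase of the nuclear exosome, at 0.54.

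For Ascl2 the closest genes were Mapkap1, a subunit of mTOR complex 2, at 0.54, the prohibitin gene Phb2 at 0.53 and Lamp3 at 0.52. For Sox9 they were Nmi at 0.58, Cd177 at 0.51 and Fkbp7 at 0.51. For Prom1 they were Ccdc186 at 0.53, Pdgfra at 0.52 and the potassium channel gene Kcnq1 at 0.50. For Cd44 they were Ythdc1, a reader of methylated RNA, at 0.53, the condensin gene Ncapg at 0.53 and the spindle checkpoint gene Mad2l1 at 0.50. For Tnfrsf19 they were Ccn1, a matricellular protein gene, at 0.61, Naa30 at 0.61 and Katnbl1 at 0.59. The Ccn1 value was 0.70 in the first i7 group and 0.15 in the second.

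For Slc12a2 the closest were Hook1, a microtubule linker gene, at 0.61, Ahcy, of the methylation cycle, at 0.56 and Cdx1 at 0.56. For Cdca7 they were the mitotic kinase gene Vrk1 at 0.71, the kinetochore gene Spc24 at 0.67 and Cpne2 at 0.67. Vrk1 and Spc24 for Cdca7, and Ncapg and Mad2l1 for Cd44, are known for their part in mitosis. Some of the closest genes were seen in few cells, among them Cpne2 in 11, Nmi in 14, and Spc24 and Ncapg in 15 each. Ccdc186 was seen in 17 and Lamp3 in 18. The rho of such genes rest largely on cells under 1 TPM. At the other end, Cdca7 had Pim1 at -0.55, Myl12a at -0.54 and Nkd1 at -0.52, and Lgr5 had Nxpe3 at -0.52, Brk1 at -0.52 and Gars at -0.43.

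The index groups differed in some markers, and whether an index stands for a plate position or a tumor was not given in the sources used here. Ascl2 was seen in 10 of 32 cells of N704 to N707 (31.2%, 16.1% to 50.01%) and in 12 of 18 of N708 to N710 (66.7%, 40.99% to 86.7%). Lgr4 was seen in 22 of 32 and 17 of 18, and Smoc2 in 25 of 32 and 18 of 18, with medians of 8.34 and 16.3 TPM. Cdca7 had medians of 17.2 and 62.1 TPM. By single i7 index, Ascl2 ranged from 1 of 8 cells in N704 to 4 of 6 in N709, and Slc12a2 from 2 of 8 in N707 to 8 of 8 in N706. Within each i7 group the pairs called together had rho of 0.32 or above.

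A pair of cells stood apart. The cell with the fewest genes, 1316, held 851473 TPM of Gm10925, and all its other genes share what is left. It had the highest Smoc2 of the 50 cells, 51.6 TPM, and the fourth highest Lgr4, 17.0 TPM, while Ascl2, Sox9, Tnfrsf19 and Slc12a2 were at 0. Without this cell the rho of Lgr4 with Smoc2 was 0.53, of Smoc2 with Slc12a2 0.54, and of Lgr5 with Smoc2 0.50. The other was the cell highest in Paneth genes, whose summed list reached 288329 TPM, against a median of 846 TPM over the cells, with 239134 TPM from the defensin gene Defa24 alone. It held 3935 genes and 7 markers, with Lgr5 at 1.37 TPM, Sox9 at 44.92 TPM and Ascl2 at 0. Without it the 5 pairs stayed together. Their rho were 0.54 for Lgr4 with Smoc2, 0.45 for Smoc2 with Slc12a2 and 0.60 for Slc12a2 with Cdca7. Lgr5 had 0.45 with Slc12a2 and 0.43 with Smoc2. Over all 50 cells, Gm10925 had a rho of 0.31 with Smoc2, 0.26 with Lgr5, 0.18 with Cdca7, 0.16 with Lgr4 and 0.13 with Slc12a2. It had -0.05 to 0.23 with the remaining markers, and a median of -0.05 over all genes. With TPM rescaled without Gm10925 and the ribosomal protein genes, 6 pairs were together. The part of Gm10925 in the marker relations was not tested further.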

How the data were processed

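Single-cell RNA-seq libraries (Bead-seq) of 1 mouse were used. The authors deposited TPM for 24410 Ensembl IDs in 56 libraries. The tools were Bowtie2 2.2.9, RSEM 1.2.31 and bcl2fastq 1.8.4 with build GRCm38.p4, per the submitters' processing notes; their settings, annotation and strand use were not given in the sources used here. The deposited TPM keep no depth, so depth is unknown. Columns were matched to samples by index pair. Symbols and coordinates came from GENCODE M21 (24235 IDs matched, 175 did not).

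Over genes at 1 TPM in 20% of libraries, libraries whose log2(TPM + 1) correlated at Pearson's r above 0.9 were averaged as 1 cell. Shares have Clopper-Pearson intervals at 95%. Relations were Spearman's rho over 50 cells, with 1 TPM as pseudocount. The members and lists were chosen with earlier results of these data known. Named genes were the members, the 3 genes nearest each member by rho, the most frequent list members, stem and Wnt genes past 0.4 or -0.4, Prox1, Mki67 and Top2a. Not every frequent member is printed, and further list genes were picked with their values in view. Doublets were not called, since TPM carry no counts. The correlation with Lgr5 was tested on simulated data over 9166 genes, with the values of each gene shuffled over cells. The call found 100 of 100 genes planted at 0.8, 25 of 100 planted at 0.3 and 26 of 8965 not planted. In the data as measured it took 35 of 9165 genes for Lgr5, a number near that of the shuffled genes. Alternatives were other thresholds, pseudocounts, correlations, filters and scalings, and leaving out cells or each i5 index. Software was SciPy 1.17.1, pandas 2.3.3, numpy 2.4.6 and matplotlib 3.10.9 under Python 3.11.15.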

Additional observations from a re-analysis of the deposited data

How the results depend on the processing

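Of 1676 values of 99 results under alternatives, 1541 stayed close to the value as reported, and 135 moved, where a rho was counted as moved at a difference of 0.1. None of the rho values at 0.4 or beyond changed sign, but of 810 values of the marker pairs, 38, in 16 pairs, took the other sign. In cells with both markers seen, Smoc2 with Cd44 had 0.09 in place of -0.23 and Ascl2 with Smoc2 -0.06 in place of 0.22. At 10 TPM a cell had a median of 3.5 markers. With Pearson's r, 1 marker reached 0.4 with a cycle list in place of 3, and 2 did given the genes per cell. Genes at 0.4 or above summed over the markers were 574 with a filter of 50% of cells, against 966. Leaving out each i5 index gave 7 to 8 markers per cell, 3 to 8 pairs together (8 without N503, 3 without N517), 2 to 3 markers with a cycle list, and 996 to 1511 genes (1511 without N508). The cause of these moves was not tested. Over 18 settings, 84 of 90 values of the 5 pairs were 0.4 or above (0.35 to 0.66), against 10 of 720 values of the other 40. Alternatives chosen after seeing the data were leaving out the averaged cells or the cell highest in Paneth genes, partial rho given the G2/M list, and cells with both markers seen. In cells with both markers seen, the 4 pairs together were Lgr5 with Smoc2, Lgr5 with Slc12a2, Smoc2 with Slc12a2, and Prom1 with Tnfrsf19 at 0.46. Lgr4 with Smoc2 fell to 0.35 there and Slc12a2 with Cdca7 to 0.38. No paired analysis was possible because there was 1 group. Unknown depth and 1 mouse limit every share and relation.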
